A study of Mus musculus with 5 samples.

Results

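DNaseI hypersensitive sites (DHSs) were compared between 5 stages of an in vitro differentiation course. Those listed in hemogenic endothelium and in hematopoietic progenitors, and in no other of these stages, made up 1482 of 68846 merged regions (2.15%). They were chosen by their pattern of presence. Each site of the 5 lists was replaced by the 500 bp centred on it. These windows, whatever their stage, were chained into a merged region where they shared at least 25% of their length, and a region was kept if it held windows of both stages and none of the other stages. All counts of listed stages below therefore describe the selection. The embryonic stem cells with which the course of the study begins were not among the 5 lists, so presence there was not examined.

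DNaseI-seq finds stretches of chromatin that the nuclease DNase I can cut. It was carried out on populations derived from a mouse embryonic stem cell line of strain 129 with GFP placed under the mesodermal gene Brachyury (Bry), and all groups share this line. By the labels, GFP+ cells were mesoderm (MES) if Flk1-, hemangioblasts (HB) if Flk1+ and hemogenic endothelium (HE) if Tie2+, cKit+ and CD41-, while the methods of the study give HE by the last 3 markers alone. Hematopoietic progenitors (HP) were sorted on CD41 and macrophages (MAC) on CD11b. Each stage gave 1 list of sites (n = 1; the MAC label names 2 replicates together), so no replicate error exists and no test between stages was made. Values in brackets after a share are its 95% Wilson interval, a measure of counting error alone. HE listed 33305 sites and HP 17734, while MES had 21949, HB 24729 and MAC 37456, with no height or read count beside them. Read totals were not used here, and absence means that no site was listed. A line kept in culture and sorted by surface markers is a model of embryonic blood formation and not the embryo itself.

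Hemogenic endothelium is the set of endothelial cells from which blood cells emerge, and CD41+ progenitors are the blood cells that arise from it. GATA2 and GATA1, the E-box binding protein TAL1, RUNX1 and ETS proteins such as FLI1 and ERG are known as the transcription factors (TFs) of this transition. TAL1 and GATA proteins can bind side by side as one complex, in which an E-box lies at a fixed short distance from a GATA word. TEAD proteins are the DNA-binding partners of YAP in the Hippo pathway.

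Sites within 1 kb of a transcription start site (TSS) of the genes behind the sort were read as a check of the labels. T, which encodes Brachyury, was listed in MES and HB and not in HE, HP or MAC, while the labels give HE as GFP+. Kit, which encodes cKit, was listed in MES, HB, HE and HP and not in MAC. Tek, which encodes Tie2, was listed in HE alone, and Itgam, which encodes CD11b, in MAC alone. Kdr, which encodes Flk1, was listed in all 5 stages, including Flk1- MES. Itga2b, which encodes CD41, was listed in HE and HP. HE was sorted as CD41-, so the Itga2b promoter was listed in a population sorted without its protein.

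The sequences of 10 of these regions are shown because they lie near genes of blood or endothelial cells and hold the words on which the motif results turn. Each is the central 200 bp on the plus strand of GRCm38.p6 (mm10), over 2 kb from a protein-coding TSS and outside annotated exons. They were ranked by the number of different motifs held. Capitals mark the GATA word AGATAA and the RUNX word TGTGGTT on either strand. They mark the ETS word CAGGAAG and, for TEAD, ACATTCC or the variant that starts with G instead of A. The E-box was searched as CAGCTG, called E-box-GC here, and separately as CAGATG, called E-box-AT. They also mark the E-box-GATA composite, CTG and GATA separated by 8 bases, of which only the outer letters are in capitals. The composite can share its GATA letters with the GATA word and its CTG with an E-box. Away from TSSs, GATA was present within such a central stretch of 200 bp in 31.6% of these regions and in 12.7% of all regions, ETS in 24.4% and 17.5%, TEAD in 15.3% and 7.82%, RUNX in 8.86% and 6.35%, and the composite in 7.55% and 2.61%. E-box-AT was present in 22.9% and 17.6% and E-box-GC in 18.2% and 16.2%. A match is a description of the letters and not a bound site.

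The region upstream of Rhag, which encodes a glycoprotein of the erythrocyte membrane, lies between genes at chr17:40806708-40806907. That upstream of Runx1, a TF required for blood to emerge from endothelium, lies between genes at chr16:92883939-92884138. The Zfpm1 region, in an intron of the gene of the GATA cofactor FOG1, lies at chr8:122309258-122309457. The Cbfa2t3 region, in an intron of the gene of the TAL1 partner ETO2, lies at chr8:122685558-122685757. The Etv6 region, in an intron of an ETS repressor gene, lies at chr6:134090108-134090307.
Rhag: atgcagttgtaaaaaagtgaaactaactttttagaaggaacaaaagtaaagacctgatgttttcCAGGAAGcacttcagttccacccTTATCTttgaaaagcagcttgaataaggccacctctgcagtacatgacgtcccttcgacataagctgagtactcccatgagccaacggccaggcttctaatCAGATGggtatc
Runx1: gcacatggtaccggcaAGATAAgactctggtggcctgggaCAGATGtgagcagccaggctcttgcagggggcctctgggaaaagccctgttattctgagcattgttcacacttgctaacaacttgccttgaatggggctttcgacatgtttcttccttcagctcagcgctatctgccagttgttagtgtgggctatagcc
Zfpm1: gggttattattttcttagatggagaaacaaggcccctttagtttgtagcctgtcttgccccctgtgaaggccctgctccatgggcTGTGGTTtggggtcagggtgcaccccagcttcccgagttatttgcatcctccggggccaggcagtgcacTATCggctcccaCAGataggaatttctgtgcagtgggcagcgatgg
Cbfa2t3: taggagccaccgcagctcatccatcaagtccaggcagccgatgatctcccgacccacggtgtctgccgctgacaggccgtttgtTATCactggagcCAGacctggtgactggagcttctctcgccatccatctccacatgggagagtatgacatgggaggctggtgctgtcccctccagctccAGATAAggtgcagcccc
Etv6: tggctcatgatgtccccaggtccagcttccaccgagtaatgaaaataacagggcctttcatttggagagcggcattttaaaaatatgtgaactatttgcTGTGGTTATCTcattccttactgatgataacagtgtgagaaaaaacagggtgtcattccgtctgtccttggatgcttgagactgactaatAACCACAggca

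The Flt1 region, in an intron of a VEGF receptor gene, lies at chr5:147657959-147658158. The Itgb3 region, in an intron of the gene of the platelet integrin beta chain, lies at chr11:104618887-104619086. The Lcp2 region, downstream of the gene of the adaptor SLP-76, lies between genes at chr11:34116962-34117161. The Was region, upstream of the gene of a regulator of actin in blood cells, lies between genes at chrX:8102350-8102549. The Laptm5 region, upstream of the gene of a lysosomal membrane protein of blood cells, lies in an intron of Gm38599 at chr4:130910661-130910860.
Flt1: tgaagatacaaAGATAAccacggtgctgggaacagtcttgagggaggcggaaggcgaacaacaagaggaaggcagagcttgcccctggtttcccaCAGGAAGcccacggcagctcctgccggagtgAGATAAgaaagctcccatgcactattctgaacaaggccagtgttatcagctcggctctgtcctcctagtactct
Itgb3: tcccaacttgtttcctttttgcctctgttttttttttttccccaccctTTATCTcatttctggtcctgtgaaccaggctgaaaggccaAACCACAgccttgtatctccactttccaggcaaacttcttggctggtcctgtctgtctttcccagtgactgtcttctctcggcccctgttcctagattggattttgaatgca
Lcp2: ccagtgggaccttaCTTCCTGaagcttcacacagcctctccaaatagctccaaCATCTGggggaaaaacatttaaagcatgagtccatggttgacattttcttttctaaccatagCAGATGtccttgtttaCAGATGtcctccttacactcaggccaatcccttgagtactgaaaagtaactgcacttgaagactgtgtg
Was: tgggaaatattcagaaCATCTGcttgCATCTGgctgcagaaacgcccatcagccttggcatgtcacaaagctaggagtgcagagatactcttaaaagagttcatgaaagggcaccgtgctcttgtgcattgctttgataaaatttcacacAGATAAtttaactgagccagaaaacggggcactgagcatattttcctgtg
Laptm5: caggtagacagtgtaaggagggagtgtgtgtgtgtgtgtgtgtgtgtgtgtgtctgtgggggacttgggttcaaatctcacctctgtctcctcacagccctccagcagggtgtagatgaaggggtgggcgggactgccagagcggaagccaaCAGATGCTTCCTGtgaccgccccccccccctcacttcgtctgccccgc

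Rhag held GATA, ETS and an E-box, and the other windows held 2 kinds of motif each. Zfpm1 and Cbfa2t3 held the composite, in Cbfa2t3 beside a separate GATA word. In Etv6 a RUNX word ran into a GATA word, so that both share letters. None of the 10 windows held a TEAD word.

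Of the regions at promoters of the erythroid, megakaryocyte and other lists below, 3 covered all 250 bases of a RefSeq entry upstream of the start site (GRCm38.p6), outside exons. They are shown 5′ to 3′ on the strand of the gene and were chosen after their values were seen. Pf4 (platelet factor 4) lies at chr5:90772185-90772434 on the plus strand, Itga2b at chr11:102469884-102470133 on the minus strand and Epb42 (an erythrocyte membrane protein) at chr2:121036878-121037127 on the minus strand. Over 32817 RefSeq promoter stretches of this length, GATA was present in 9.99%, E-box-GC in 13.0%, E-box-AT in 14.5% and the composite in 1.90%.
Pf4: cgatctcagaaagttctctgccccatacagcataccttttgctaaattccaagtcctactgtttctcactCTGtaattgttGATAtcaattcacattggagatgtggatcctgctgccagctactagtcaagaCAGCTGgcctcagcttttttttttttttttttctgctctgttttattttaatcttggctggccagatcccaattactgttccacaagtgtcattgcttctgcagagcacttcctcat
Itga2b: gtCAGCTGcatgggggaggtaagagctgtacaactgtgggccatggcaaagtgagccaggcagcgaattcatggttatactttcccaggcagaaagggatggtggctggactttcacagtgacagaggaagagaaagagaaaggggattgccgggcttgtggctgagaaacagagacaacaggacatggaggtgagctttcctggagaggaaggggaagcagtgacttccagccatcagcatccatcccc
Epb42: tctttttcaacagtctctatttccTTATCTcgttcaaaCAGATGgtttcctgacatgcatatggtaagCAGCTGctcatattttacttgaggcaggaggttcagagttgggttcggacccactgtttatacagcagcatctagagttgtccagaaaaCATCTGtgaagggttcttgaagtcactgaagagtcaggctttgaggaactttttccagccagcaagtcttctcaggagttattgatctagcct

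Pf4 held the composite and E-box-GC, Itga2b held E-box-GC alone, and Epb42 held a GATA word, E-box-GC and 2 copies of E-box-AT.

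The regions took 4.45% of the 33305 regions with an HE window, 8.36% of the 17730 with an HP window and 10.4% of the 14272 with both. Each held exactly 1 site of HE and 1 of HP. The middles of these sites lay a median of 82.0 bp apart, with a range from 0 to 371 bp, and in 911 regions (61.5%) they lay within 100 bp. Just inside the limit of 375 bp, 33 regions had middles over 325 bp apart. Just outside it, 45 pairs of an HE-only and an HP-only site had middles over 375 and up to 500 bp apart, and 118 such pairs had deposited intervals that overlapped.

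HE sites were the wider ones in most of the regions. The HE site had a median width of 1200 bp (range from 200 to 2700 bp) and the HP site of 600 bp (range from 200 to 1800 bp). The HE site was wider in 1352 regions (91.2%), equal in 54 (3.64%) and narrower in 76 (5.13%). The medians of the whole lists were 1200 bp in HE and 900 bp in HP, so the HE sites had the width usual for their list and the HP sites were narrow for theirs. An HP width of 900 bp or more was found in 17.7% (15.8 to 19.7) of these regions and in 51.3% (50.6 to 52.1) of the HP list. An HE width of 1200 bp or more was found in 56.0% (53.5 to 58.5) and in 54.0% (53.5 to 54.5) of the HE list. Regions listed in a single stage had narrower sites, with medians of 900 bp in HE only and 500 bp in HP only.

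**Figure D1:**
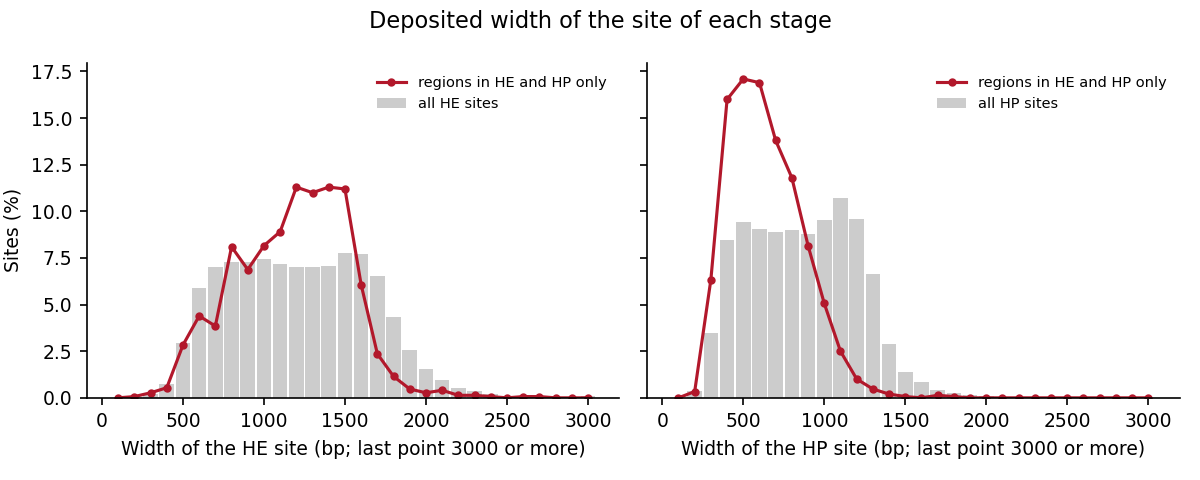
Width in bp of the deposited HE site (left) and HP site (right), as percent of sites; grey bars are the whole list and the red line is the 1482 regions in HE and HP only. The HE sites peak between 1200 and 1500 bp, within the spread of their list, while the HP sites lie to the left of theirs, with a median of 600 against 900 bp.

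The nearest deposited site of an absent stage lay a median of 23002 bp away in MES, 18763 bp in HB and 11578 bp in MAC. In 616 regions (41.6%) no site of these stages lay within 10 kb. In 55 regions (3.71%) the deposited interval of at least 1 of them, wider than its window, still reached into the region, namely MES in 18, HB in 30 and MAC in 24. The promoter region of Hhex, described below, was among these.

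The regions lay mostly away from promoters. Promoters, within 2 kb of a protein-coding TSS, took 105 regions or 7.09% (5.89 to 8.51), against 16.2% (15.6 to 16.9) of regions in HE only, 11.8% (10.3 to 13.5) in HP only and 24.0% (23.6 to 24.3) of all regions, and none of these intervals overlapped. Regions in HE, HP and MAC, at 9.58% (7.94 to 11.5), had an interval that overlapped, but in 2 of 8 alternatives the share was lower than theirs, such as 6.00% against 9.21% with the deposited intervals in place of windows. The lower share than in HP only did not hold in 5 of 8 alternatives, such as a reach of 1 kb, where the shares were 5.53% and 7.72% with overlapping intervals. A further 33.9% (31.5 to 36.3) were proximal, up to 20 kb from a TSS, and 59.0% (56.5 to 61.5) were distal, against 53.9% (53.0 to 54.8) distal in HE only and 49.3% (46.8 to 51.8) in HP only. The distal share in HE, HP and MAC, 53.7% (50.7 to 56.7), had an overlapping interval. The median distance to a TSS was 28042 bp, against 23719 bp in HE only, 19498 bp in HP only and 16111 bp over all regions.

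By gene structure, 816 regions (55.1%) lay in introns, 515 (34.8%) between genes, 127 (8.57%) in non-coding parts of exons and 24 (1.62%) in coding exons. CpG-rich sequence (GC share of at least 0.5 and CpG at 0.6 or more of the frequency expected from the bases) was found in 41 regions, 2.77% (2.05 to 3.73), against 8.47% (7.98 to 8.98) in HE only and 18.2% (18.0 to 18.5) of all regions. The intervals in HP only, 3.99% (3.12 to 5.08), and in HE, HP and MAC, 2.59% (1.78 to 3.74), overlapped it. Among the promoter regions alone, 34 of 105 were CpG-rich, 32.4% (24.2 to 41.8), against 65.9% (65.2 to 66.6) of all promoter regions. The interval overlapped those of HE only, at 41.4% (39.2 to 43.6), HP only, at 26.2% (20.4 to 33.0), and HE, HP and MAC, at 21.0%. Over 2 kb from a TSS the median GC share was 48.8%, beside 48.4% in HE only, 48.6% in HP only, 49.6% in HE, HP and MAC and 48.6% over all regions, and the part of GC content in the motif shares below was not tested.

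For 1377 regions, those more than 2 kb away from any TSS, motifs were searched in 500 bp around the middle, with the same word written backwards as a control of equal base composition. GATA was the most frequent of the TF words at 49.2% (46.6 to 51.9), against 34.5% (33.6 to 35.4) in HE only, 32.7% (29.8 to 35.8) in HE, HP and MAC and 27.3% (26.9 to 27.7) over all regions. The interval in HP only, 44.5% (41.9 to 47.2), overlapped. The backward word was found in 17.4%, close to the 19.0% over all regions. Copies of GATA numbered 2 or more in 13.5% of the regions, against 5.41% of all regions.

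The E-box-GATA composite was found in 13.9% (12.1 to 15.8) of the regions, against 7.88% (7.37 to 8.43) in HE only and 6.99% (5.53 to 8.80) in HE, HP and MAC. In HP only it was found in 13.3% (11.6 to 15.2), which overlapped. The E-boxes by themselves stood less apart. E-box-AT was found in 42.8% (40.3 to 45.5) against 38.5% (37.6 to 39.5) in HE only and 37.3% (36.9 to 37.7) over all regions, but the intervals in HP only, 39.3% (36.7 to 41.9), and in HE, HP and MAC, 41.3% (38.2 to 44.5), overlapped. E-box-GC was found in 35.1% (32.6 to 37.6), against 33.0% (32.1 to 33.9) in HE only, 33.1% (30.7 to 35.6) in HP only and 36.8% (33.7 to 39.9) in HE, HP and MAC, all with overlapping intervals.

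TEAD was the motif in which the regions stood above every other set compared. It was found in 27.2% (24.9 to 29.6), against 20.5% (19.7 to 21.3) in HE only, 19.0% (17.0 to 21.2) in HP only, 15.7% (13.5 to 18.1) in HE, HP and MAC and 16.5% (16.1 to 16.8) over all regions. No interval overlapped, and the backward words were found in 6.39%. When each list was cut to its wider sites, from its median width up, 395 regions were left and the shares were 25.8% against 20.7% in HE only, with overlapping intervals.

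RUNX was found in 18.7% (16.8 to 20.9), against 21.3% (19.2 to 23.5) in HP only and 20.3% (17.9 to 23.0) in HE, HP and MAC, whose intervals overlapped, and 11.1% (10.5 to 11.7) in HE only, whose interval did not. ETS was found in 42.3% (39.7 to 44.9), against 42.9% (42.0 to 43.9) in HE only and 42.8% (39.7 to 46.0) in HE, HP and MAC, and 26.8% (24.5 to 29.2) in HP only. The interval of the composite overlapped that of HP only in all 7 alternatives, but that of GATA did so in 4 of 7, and in the other 3 GATA was higher in the regions, such as 47.8% against 40.1% when every list was cut to the length of the shortest.

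AP-1 (TGAGTCA, the word of FOS and JUN proteins) was found in 26.7% (24.4 to 29.1), against 19.4% (18.6 to 20.2) in HE only, 18.7% (16.7 to 20.8) in HP only and 43.8% (40.6 to 46.9) in HE, HP and MAC. With each list cut to its wider sites, AP-1 was at 23.0% against 18.7% in HE only and 19.6% in HP only, with overlapping intervals. PU.1 (GAGGAAGT), the word of the ETS factor of macrophages, was found in 6.61% (5.41 to 8.05), against 14.9% (12.8 to 17.4) where MAC was listed too, 6.62% (6.14 to 7.12) in HE only and 4.37% (3.41 to 5.59) in HP only, and the last 2 intervals overlapped it. C/EBP (TTGCNNAA), the word of factors of myeloid cells, was found in 16.6% (14.8 to 18.7), against 22.5% (19.9 to 25.2) where MAC was listed too, and the intervals in HE only, 17.7% (17.0 to 18.5), and in HP only, 18.4% (16.4 to 20.5), overlapped it. SOX (AACAAT) was found in 21.6% (19.5 to 23.9), under the 28.7% (27.8 to 29.6) of HE only, and near its backward word at 20.2%. CTCF, the insulator protein, had a match in 1.45% (0.942 to 2.23), against 4.30% (3.35 to 5.51) in HP only and 3.89% (3.73 to 4.06) over all regions. Its shares in HE only, 1.74%, and in HE, HP and MAC, 2.22% (1.46 to 3.38), had overlapping intervals. MEIS (TGACAG) at 38.9%, FOX (TGTTTAC) at 8.42%, KLF (CCACACCC) at 5.16%, T-box (AGGTGTGA) at 1.53% and the octamer (ATGCAAAT) at 1.96% had intervals that overlapped those of HE only.

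**Figure D2:**
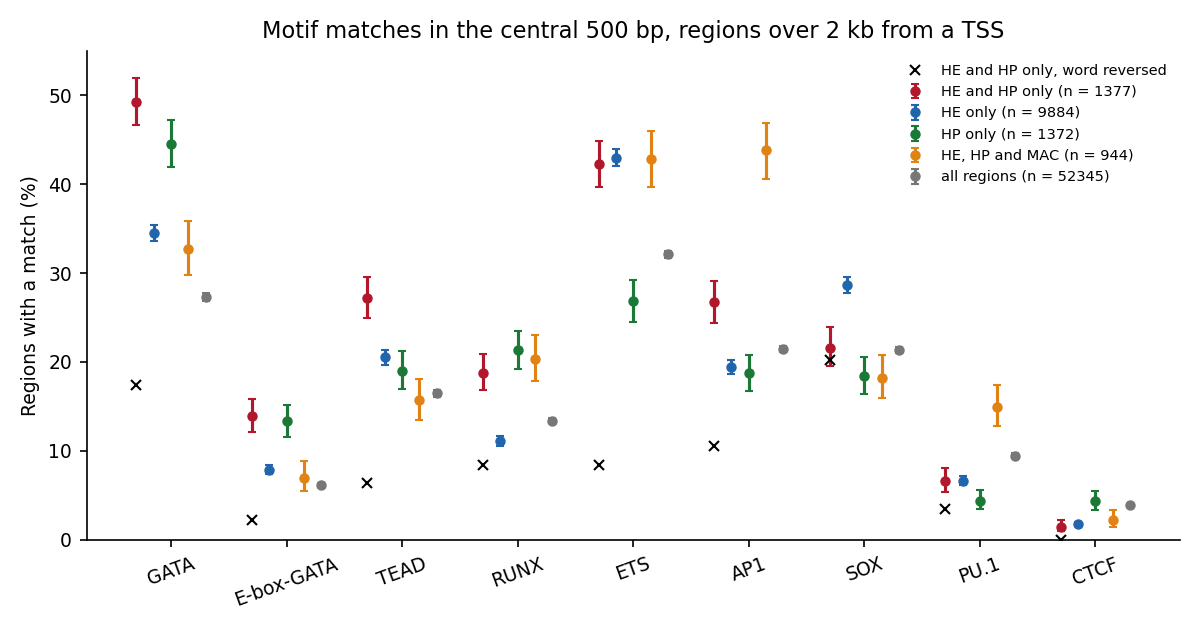
Percent of regions over 2 kb from a TSS with at least 1 match in the central 500 bp, for 9 motifs and 5 sets of regions; points are shares, bars are 95% Wilson intervals, and crosses are the backward word in the regions in HE and HP only. The regions in HE and HP only lie at 49.2% for GATA and at 27.2% for TEAD, and for TEAD above every other set.

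The distance between CTG and GATA was then varied from 0 to 30 bases, after the result for 8 bases was seen. The regions had their highest share at 9 bases, 19.5% (17.5 to 21.7), followed by 8 bases, 13.9% (12.1 to 15.8). The other 29 distances ranged from 5.37% to 9.73% with a median of 7.70%. Either spacing was present in 420 regions, 30.5% (28.1 to 33.0). It was present in 31.3% (28.9 to 33.8) of HP only, 15.8% (15.1 to 16.6) of HE only, 17.2% (14.9 to 19.7) of HE, HP and MAC and 12.5% (12.2 to 12.8) of all regions. At 9 bases alone, HP only had 20.9% (18.8 to 23.2), HE, HP and MAC 11.1% (9.27 to 13.3) and HE only 8.65% (8.11 to 9.22).

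**Figure D3:**
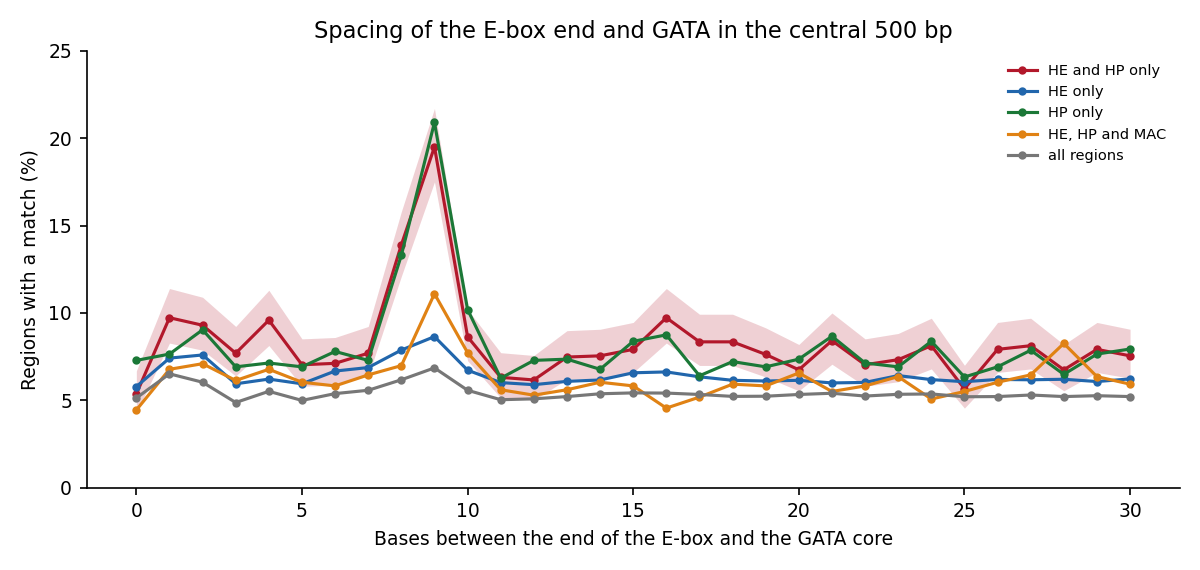
Percent of regions over 2 kb from a TSS in which the end of an E-box (CTG) and GATA lie at a given number of bases from each other, from 0 to 30, on either strand; lines are sets of regions and the shaded band is the 95% Wilson interval of the regions in HE and HP only. Regions in HE and HP only reach 19.5% at 9 bases and 13.9% at 8 bases, and stay between 5.37% and 9.73% at all other distances.

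GATA, ETS, TEAD and AP-1 words were more frequent near the middle of the regions than at their edges. GATA matches numbered 10.2 per 100 regions in the 50 bp just before the middle and 3.05 in the last 50 bp, a range that over all regions ran from 2.90 to 3.77. The rise was also present in HP only, from 2.84 to 8.31. ETS matches numbered 7.99 per 100 regions at the middle and 2.98 at the edge, against 7.58 and 3.61 as the highest and lowest of any 50 bp in HE only, 10.8 and 3.07 in HE, HP and MAC and 5.34 and 2.76 over all regions. TEAD matches numbered 4.65 at the middle and 1.82 at the edge, against 3.06 and 1.17 as the highest and lowest in HP only, 2.89 and 1.60 in HE only and 2.29 and 1.41 over all regions. AP-1 reached 5.23 just after the middle, against 4.24 over all regions and 10.8 in HE, HP and MAC. RUNX lay between 1.53 and 2.54 in any 50 bp. The composite was most frequent between 50 and 150 bp after the middle, at 2.25, against 1.89 in the 50 bp just before the middle and 0.363 in the last 50 bp. These rates are given with no interval or test.

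**Figure D4:**
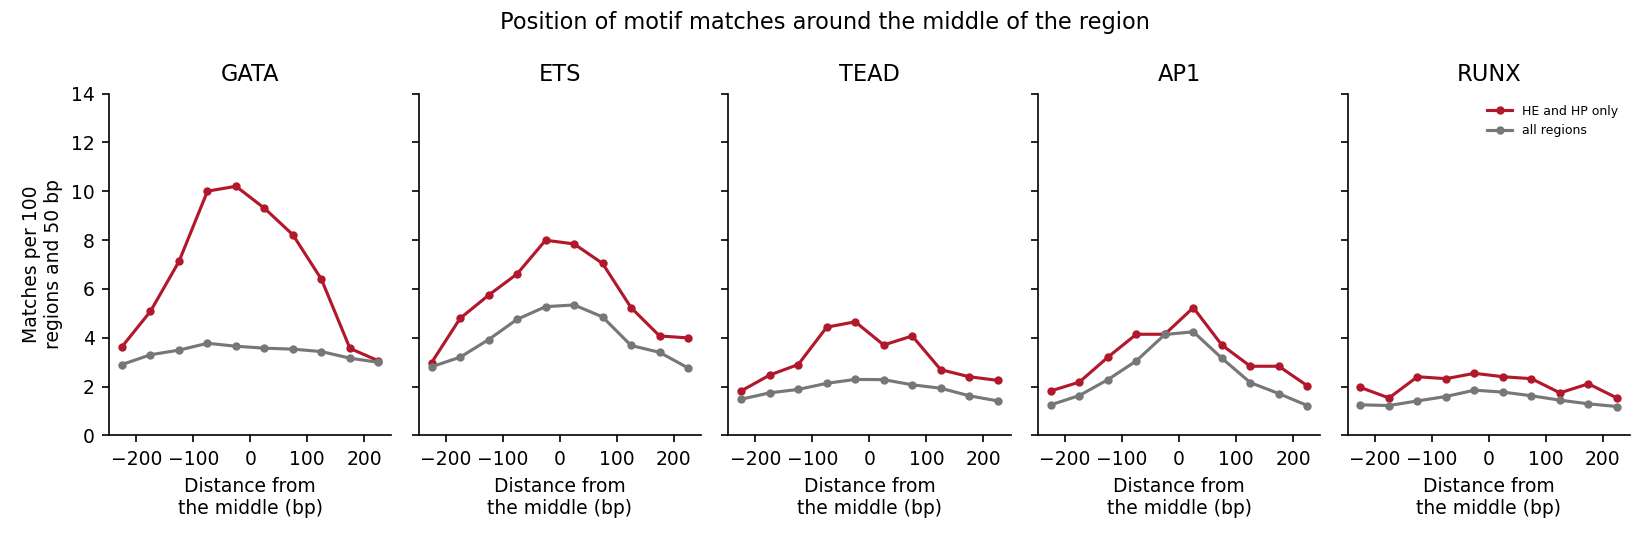
Motif matches per 100 regions in bins of 50 bp against the distance in bp from the middle of the region, for regions over 2 kb from a TSS; red is the 1377 regions in HE and HP only and grey all 52345 regions. GATA rises from 3.63 at the left edge to 10.2 at the middle in the red line and stays between 2.90 and 3.77 in the grey line.

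The regions differed in how many of these words they held. Of GATA, RUNX, ETS, TEAD and AP-1, none was present in 11.8% of the regions, 1 in 33.1%, 2 in 37.5%, 3 in 14.2%, 4 in 3.27% and all 5 in 1 region. AP-1 was found in 23.0% of the regions with GATA and 30.2% of those without it, and the intervals did not overlap. TEAD was found in 26.3% with GATA and 28.2% without, and ETS in 40.0% (36.3 to 43.7) and 44.5% (40.8 to 48.2), so both pairs of intervals overlapped. RUNX was found in 19.0% (16.2 to 22.2) with GATA and 18.5% (15.8 to 21.5) without. TEAD was found in 33.7% (28.2 to 39.7) with RUNX and 25.7% (23.3 to 28.4) without, with intervals that overlapped narrowly.

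Among these 1377 regions, the widths of their HE and HP sites went with different words. With the width of the HP site, the share with GATA went from 42.9% (38.8 to 47.0) at up to 500 bp to 50.2% (45.5 to 54.9) at 600 to 700 bp and 57.1% (52.2 to 61.9) at 800 bp or more. The composite went from 10.3% (8.04 to 13.1) to 18.6% (15.1 to 22.8) and RUNX from 16.1% (13.3 to 19.4) to 23.7% (19.8 to 28.2) between the narrowest and widest classes. AP-1 went the other way, from 31.6% (27.9 to 35.6) to 21.2% (17.4 to 25.5), and ETS was at 41.2% (37.2 to 45.4) and 44.1% (39.3 to 49.1), with overlapping intervals. With the width of the HE site it was ETS that differed, from 35.2% (30.5 to 40.1) at up to 900 bp to 50.1% (45.5 to 54.8) at 1400 bp or more. GATA was at 46.6% (41.7 to 51.6) and 52.4% (47.7 to 57.0) in those classes, with overlapping intervals. The TEAD intervals overlapped between all classes of either width.

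**Figure D5:**
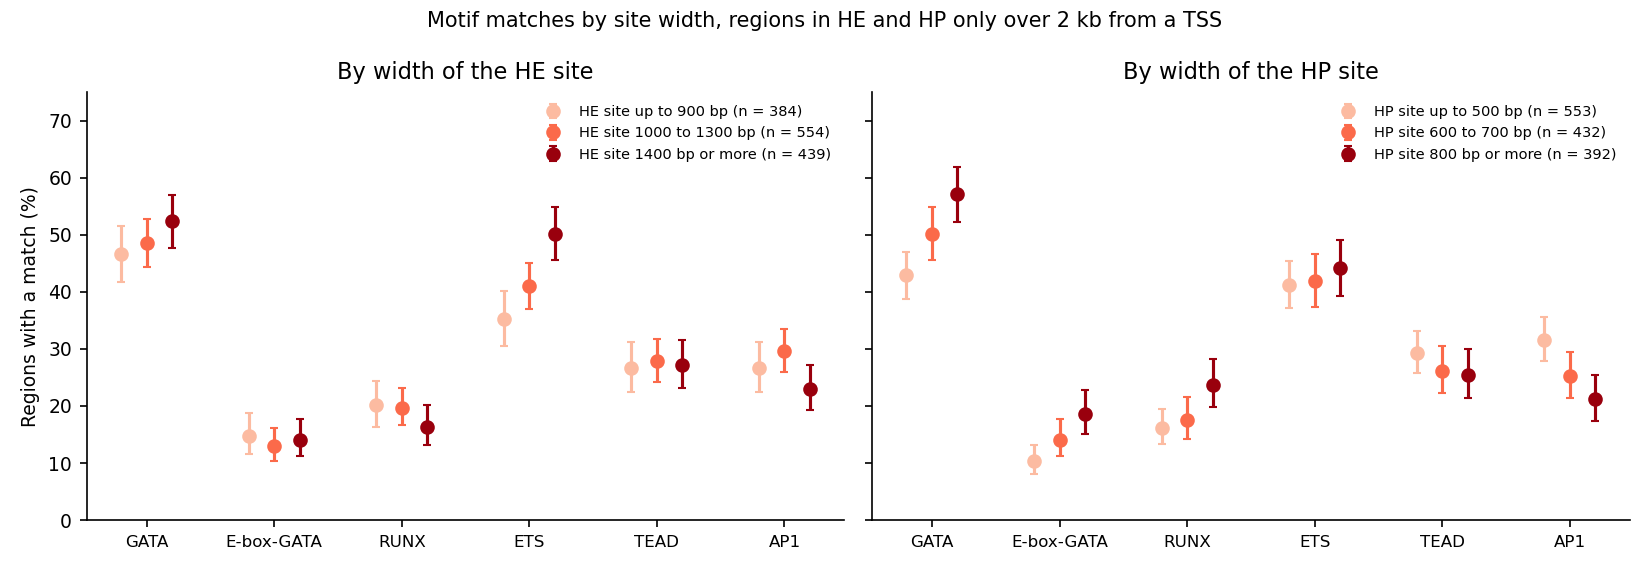
Percent of regions in HE and HP only over 2 kb from a TSS with a motif match, by the width class of their HE site (left) and HP site (right); points are shares and bars 95% Wilson intervals. ETS separates by HE width (35.2% to 50.1%), and GATA (42.9% to 57.1%) and AP-1 (31.6% to 21.2%) separate by HP width.

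The words were also compared between promoter and other regions. GATA was found in 26.7% (19.1 to 35.8) of the 105 promoter regions, 49.6% (45.2 to 54.0) of the proximal and 49.0% (45.7 to 52.3) of the distal ones. TEAD was found in 15.2% (9.60 to 23.3), 25.5% (21.9 to 29.5) and 28.2% (25.3 to 31.3), and of these the promoter interval overlapped the proximal one. ETS, at 36.2% (27.6 to 45.7), and RUNX, at 11.4% (6.66 to 18.9), had promoter intervals that overlapped the proximal and distal ones. The composite was found in 15.2% (9.60 to 23.3) of promoter regions and 14.5% (12.3 to 17.0) of distal ones, with overlapping intervals.

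Most promoters of the nearest genes were themselves listed at all stages. The regions over 2 kb from a TSS and within 100 kb of one had 1013 nearest protein-coding genes. Of these, 80.5% (77.9 to 82.8) had a site within 1 kb of a TSS in HE, 73.4% (70.6 to 76.1) in HB, 71.6% (68.7 to 74.3) in MES, 63.6% (60.6 to 66.5) in HP and 63.5% (60.5 to 66.4) in MAC. Over all protein-coding genes the shares were lower and also highest in HE, at 61.7%, 58.9%, 57.2%, 50.1% and 50.2% for the same stages. Genes nearest to a region in HE only, at 78.3% (77.2 to 79.5) in HE, and in HP only, at 82.6% (80.2 to 84.7), had intervals that overlapped that of the members. In 539 genes (53.2%, 50.1 to 56.3) the promoter was listed in all 5 stages, against 49.4% (48.0 to 50.8) of genes nearest to a region in HE only, 59.2% (56.2 to 62.1) in HP only, 59.0% (55.4 to 62.5) in HE, HP and MAC and 43.4% (42.7 to 44.0) of all 21000 protein-coding genes. In 55 genes (5.43%) it was listed in HE, in HP or in both, and in no other stage. This share lay above the 3.6% (3.35 to 3.86) of all protein-coding genes, with intervals that did not overlap. The intervals did overlap for the genes nearest to a region in HE only, at 5.28% (4.69 to 5.95), in HP only, at 4.50% (3.41 to 5.92), in HE, HP and MAC, at 4.10% (2.89 to 5.79), and to any region, at 4.04% (3.71 to 4.40). The 2 kb limit used curated mRNA TSSs, but promoters were read at any annotated TSS of the gene. A member, or another member near the same gene, can therefore be the listed promoter site itself. The part of this in the 5.43% was not tested.

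Within 100 kb of a protein-coding TSS lay 1237 regions, which were nearest to 1104 genes, or 5.26% of 21000 genes. Of these genes 988 had 1 region, 103 had 2, 9 had 3 and 4 had 4. The counts for 8 gene lists, read beside that 5.26%, are given as descriptions. A gene with more regions of any kind has more chances of a member, so the share of all regions near the same genes is given too, which was 2.07% over all genes.

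Of 27 genes of blood TFs, 7 had at least 1 region (25.9%), and 12 of the 258 regions nearest to them were members (4.65%). Runx1 had a region of 1800 bp in HE and 1200 bp in HP in its intron at chr16:92822110-92822968, 3.54 kb downstream of a TSS, with the nearest sites of MES at 5.01 kb, HB at 4.88 kb and MAC at 2.74 kb. The region upstream of Runx1 shown above was 1500 bp wide in HE and 900 bp in HP and lay 58.0 kb from the TSS, with MES and HB sites 55.4 and 55.1 kb away and a MAC site 9.45 kb away. The intronic Erg region at chr16:95439369-95439959 was 1800 bp wide in HE and 1300 bp in HP. Its nearest MES site lay 262 kb, its nearest HB site 145 kb and its nearest MAC site 6.76 kb away. Erg and Fli1 encode ETS factors of endothelium and blood. The intronic Fli1 region at chr9:32525580-32526250 was 1400 bp wide in HE and 600 bp in HP and held GATA, TEAD and the composite.

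Cbfa2t3 had 3 regions and Zfpm1 had 2, and both genes encode partners of the GATA and TAL1 complexes. The HE sites of Cbfa2t3 measured 1200, 1500 and 1500 bp and the HP sites 900, 1200 and 500 bp, in the same order. The Zfpm1 region shown above was 1600 bp wide in HE and 900 bp in HP, and the other at chr8:122317943-122318573 was 1000 and 500 bp wide. Etv6 had 1 region, 1400 bp wide in HE and 900 bp in HP. Hhex, a homeobox gene of endothelium and blood, had 2, of which the promoter region at chr19:37435080-37435881 was reached by deposited intervals of HB and MAC and lay 40 bp from one of MES.

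Of 23 megakaryocyte and platelet genes, 8 had a region (34.8%), and 8 of 95 regions near them were members (8.42%). The Itga2b promoter region at chr11:102469811-102470413 was 1500 bp wide in HE and 1000 bp in HP, with the nearest MES, HB and MAC sites 2.09, 2.00 and 2.04 kb away. The Pf4 promoter region at chr5:90772126-90772692 was 1300 bp wide in HE and 300 bp in HP, with MES and HB sites 131 and 118 kb away and a MAC site 180 bp away. The intronic Itgb3 region was 1100 bp wide in HE and 900 bp in HP. Tubb1, which encodes the tubulin of platelets, had an intronic region at chr2:174453620-174454169 of 1200 bp in HE and 800 bp in HP, and its promoter was listed in HP alone. Thbs1, F2r, Fermt3 and Rab27b each had 1 region as well.

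Of 25 erythroid genes of the annotation, 7 had a region (28.0%), and 8 of 72 regions near them were members (11.1%). Alas2, the erythroid enzyme of heme synthesis, had a region at chrX:150549566-150550133 in a non-coding exon part, 1000 bp wide in HE and 800 bp in HP, with the nearest sites of MES, HB and MAC 37.9, 37.7 and 37.9 kb away. It held 2 GATA and 2 ETS words, and no stage listed the Alas2 promoter within 1 kb. The Epb42 promoter region was 1200 bp wide in HE and 900 bp in HP, with no site of another stage within 27.6 kb. Rhag had a region of 800 bp in HE and 600 bp in HP, with the nearest other site 73.0 kb away. Gypc had 2 regions and Fech, the last enzyme of heme synthesis, had 1.

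Of 23 endothelial genes, 7 had a region (30.4%), and 10 of 158 regions near them were members (6.33%). Flt1 had 3, all intronic, with HE widths of 1500, 1100 and 1600 bp and HP widths of 900, 600 and 700 bp. The Flt1 region of 1600 bp in HE lay 224 bp from an HB site, 432 bp from a MES site and 20.3 kb from a MAC site. The promoters of Pecam1, Tie1 and Plvap, which encode an adhesion molecule, a receptor and a diaphragm protein of endothelium, were members. Pecam1 at chr11:106714911-106715513 was 1700 bp wide in HE and 800 bp in HP, Tie1 at chr4:118489515-118490057 was 1600 and 300 bp wide, and Plvap at chr8:71511674-71512192 was 1600 and 600 bp wide. Egfl7 had 2 regions upstream, of 1700 and 1400 bp in HE and 700 and 800 bp in HP. Eng and Esam had 1 each, and the Esam region was one of the few with the wider site in HP, 1000 against 900 bp.

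Of 20 genes of blood receptors and signalling, 3 had a region (15.0%), Was, Lcp2 and Laptm5, and 3 of 144 regions near them were members (2.08%), close to the 2.07% over all genes. The Was region was 700 bp wide in HE and 900 bp in HP and held 4 GATA words in its central 500 bp, the most of any named region. The macrophage list had 1 gene of 18 with a region (5.56%), Irf8, and 1 of 134 regions (0.746%). The mesoderm and heart list had 3 of 15, Hand2, Mef2c and Tcf21, and 3 of 119 regions (2.52%). The Hippo and TEAD list had 3 of 14 (21.4%), Tead1 with 2 regions and Ccn1 and Amotl2 with 1, and 4 of 89 regions (4.49%). Tead1 encodes a TEAD factor and Ccn1 and Amotl2 are known targets of YAP. The Tead1 regions were 1300 and 1400 bp wide in HE and 400 and 800 bp in HP, and neither held a TEAD word, nor did the Ccn1 region. The Amotl2 region at chr9:102759351-102759979 held 1, so that 1 of the 4 regions had the word, against 27.2% of the regions over 2 kb from a TSS.

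The genes with most regions were Fer, Mgst2, Pcgf5 and Rgs3 with 4 each, followed by Abca4, Ahi1, B3gnt2, Cbfa2t3, Dusp4 and Flt1 with 3, ties being broken by the alphabet. They had 12, 20, 11 and 33 regions of any kind for those with 4. The Pcgf5 regions, upstream of or within the gene of a Polycomb protein, spanned chr19:36273430-36365281 and had HE widths of 1500, 1600, 1200 and 600 bp and HP widths of 700, 900, 700 and 400 bp. All 4 held GATA, and 3 of them held the composite. Of the 4 regions nearest to Mgst2, 3 lay within Maml3. All 3 regions near Ahi1, which neighbours the blood TF gene Myb, held GATA and lay in Ahi1 introns, with HE widths of 1000, 1700 and 1300 bp and HP widths of 300, 800 and 400 bp. Over the 10 genes, 19 of the 34 regions held GATA, 55.9% (39.5 to 71.1), an interval that included the 49.2% of the regions over 2 kb from a TSS. GATA was in 2 of 4 regions at Fer and Mgst2, 2 of 3 at Abca4 and Cbfa2t3, 1 of 4 at Rgs3 and 1 of 3 at B3gnt2, Dusp4 and Flt1. In all, 287 regions (19.4%) had another within 50 kb, in 135 groups.

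The regions were found on every chromosome except Y, which held 13 regions in all. Their share of the regions of a chromosome ran from 1.48% (1.08 to 2.02) on chromosome 14 to 2.68% (2.19 to 3.29) on chromosome 3.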

How the data were processed

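The deposited values were start and end positions in bp, another kind of unit than counts or signal: the authors trimmed reads with CutAdapt, aligned them to mm10 with Bowtie, kept unique reads, dropped duplicates (Picard) and ran the site caller DFilter at a bin size of 100 bp. Versions are not given in the sources used here. No score stands beside a site and read totals were not used here, so the part of depth in the length of a list was not tested. The members and gene lists were chosen with earlier results of these data known.

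Sites were chained as described with Python 3.11.15, pandas 2.3.3 and numpy 2.4.6, and annotated with RefSeq GRCm38.p6 (25999 curated mRNA TSS positions, 21000 genes). The 4 mitochondrial regions were left out of annotation. Intervals came from scipy 1.17.1. Merging and motif search were tested on simulated data, and annotation was not. Genes named were those of 8 lists (blood TFs, megakaryocyte and platelet, erythroid, endothelial, blood receptors and signalling, macrophage, mesoderm and heart, Hippo and TEAD) nearest to a region within 100 kb, and the 10 genes nearest to most; some of them are not reported here. Alternatives varied the chaining, the lists, the TSS set, the CpG limits, the motif window and the gene reach.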

Additional observations from a re-analysis of the deposited data

How the results depend on the processing

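The count of 1482 stayed between 1272 and 1480 in 5 of 6 alternatives and fell to 395 when each list was cut to its wider sites, from its median width up. That setting gave a promoter share of 19.5%, a CpG-rich share of 11.1%, GATA 56.3% and AP-1 23.0%. Cutting every list to the length of the shortest, widest first, gave a promoter share of 12.5%, CpG-rich 5.82% and ETS 45.6%. Deposited intervals gave CpG-rich 1.86%, and leaving out regions reached by an interval of MES, HB or MAC gave promoter 5.89% and CpG-rich 1.89%, where HP only, treated alike after the data were seen, had 7.33% and 1.59% with overlapping intervals. TSS of all annotated transcripts gave promoter 15.5% and a reach of 1 kb gave 5.53%. The central 200 bp gave GATA 31.6%, E-box-GATA 7.55%, TEAD 15.3%, RUNX 8.86%, ETS 24.4% and AP-1 15.3%, since less sequence was searched. Backward words gave GATA 17.4%, E-box-GATA 2.25%, TEAD 6.39%, RUNX 8.35%, ETS 8.42% and AP-1 10.5%. With 9 bases in place of 8, chosen after seeing the data, the composite was at 19.5%. Any protein-coding TSS within 100 kb gave 3285 genes in place of 1104. The cause of the changes with width was not tested.

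Against HE only, the regions stayed lower in promoter and CpG-rich share and higher in GATA, E-box-GATA and RUNX in every alternative other than the backward words, with the comparison sets processed as the regions were. TEAD and AP-1 stayed higher in 6 of 7, and ETS intervals overlapped in all 7. Against HP only, GATA was higher in 3 of 7 alternatives, and against HE, HP and MAC the composite was higher in 6 of 7. No paired analysis was possible because each stage has 1 list. With 1 list a stage, nothing here measures the spread between cultures.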
